A study of Mus musculus with 8 samples.

Results

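The comparison described here is the difference between 2 genotypes in the heart's transcriptional response to PE: for each gene, the change with PE in S105A hearts minus the change with PE in wild-type (WT) hearts, called the interaction below. It was formed from all 8 arrays of the study and all 19938 genes that could be named, so no array and no gene was selected by its value. The 4 groups held 2 mice each, all 9 weeks old and on a C57Bl6 background, and each array carried the RNA of 1 animal: WT untreated (arrays 1 and 2), WT with PE (arrays 3 and 4), homozygous Gata4 S105A mutant untreated (arrays 5 and 6) and the same mutant with PE (arrays 7 and 8). PE was given at 100 mg/kg/day for 5 days from an osmotic pump under the skin. The labels spell PE out as pseudoephedrine, which is not the compound that this abbreviation usually stands for in such experiments, and the abbreviation is kept here. Control mice are untreated in the titles, whereas the treatment protocol names saline; whether they carried a pump is not settled by the labels. The titles name whole hearts and the tissue field names ventricle, so the atrial share of the samples is not known. The labels name no tissue-restricted driver for the mutation.

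GATA4 is a zinc-finger transcription factor of cardiomyocytes that binds GATA motifs in genes of the contractile and natriuretic peptide programmes. Adrenergic agonists and pressure load activate the ERK kinases, which phosphorylate GATA4 at the serine that S105A replaces; alanine in its place cannot be phosphorylated. The growth of the adult heart under such a stimulus is accompanied by a return of fetal genes, such as the beta isoform of myosin heavy chain and the natriuretic peptides, by matrix deposition and by lower expression of genes of fatty acid use. The interaction asks which of these changes were larger or smaller in hearts with the mutated site.

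The values are RMA log2 expression values, so an interaction of 1 means that the PE-to-untreated ratio was doubled in S105A relative to WT. The samples carried the markers of ventricular muscle at high level on every array: Myl2, the ventricular myosin light chain, was at 12.93 to 13.62 and Tnnt2, cardiac troponin T, at 13.71 to 13.83. Gata4 itself was at 10.14 and 10.05 in untreated WT, 10.16 and 9.92 in WT with PE, 10.07 and 9.96 in untreated S105A, and 10.02 and 10.09 in S105A with PE. The groups overlapped, and the interaction was 0.09 (SE 0.15, 95% interval -0.27 to 0.44). A substituted codon leaves the transcript in place, so this level does not check the genotype. The array medians lay between 6.73 and 6.80. The PE groups were less uniform than the controls: 703 genes differed by at least 1 log2 unit between the 2 WT hearts with PE and 171 between the 2 S105A hearts with PE, against 34 and 6 in the untreated WT and S105A pairs. Array 3 in WT and array 7 in S105A carried the stronger PE profile of each pair, and results that rest on them are given with and without them. P-values reflect the spread between 2 mice per group.

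No gene passed the threshold for a genotype difference in the PE response (0 of 19938 genes, 0%, at a limma adjusted p under 0.05). Before adjustment, 483 genes (2.42%) lay under a p of 0.05. Of these, 180 (0.903%) had the higher PE effect in S105A and 303 (1.52%) the lower one. Higher and lower refer to the signed effect, so a smaller drop with PE in S105A counts as higher. By the same limma fit, 2342 genes (11.7%) were at an unadjusted p under 0.05 for the PE effect in WT and 1169 (5.86%) for the PE effect in S105A. After adjustment 1 gene (0.00502%), Myh7, passed in WT and 0 (0%) in S105A. The interaction had a median of -0.01 over all genes, with quartiles at -0.12 and 0.10; it was above 0 in 47.5% of genes and below 0 in 52.5%. Its 95% interval reached a median of 0.38 to either side, and for 17934 genes (89.9%) it lay wholly within -1 and 1. A difference of more than 2-fold in the PE ratio was thus outside the interval for those genes. Which smaller differences lay outside it varied from gene to gene, and none passed adjustment.

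**Figure D1:**
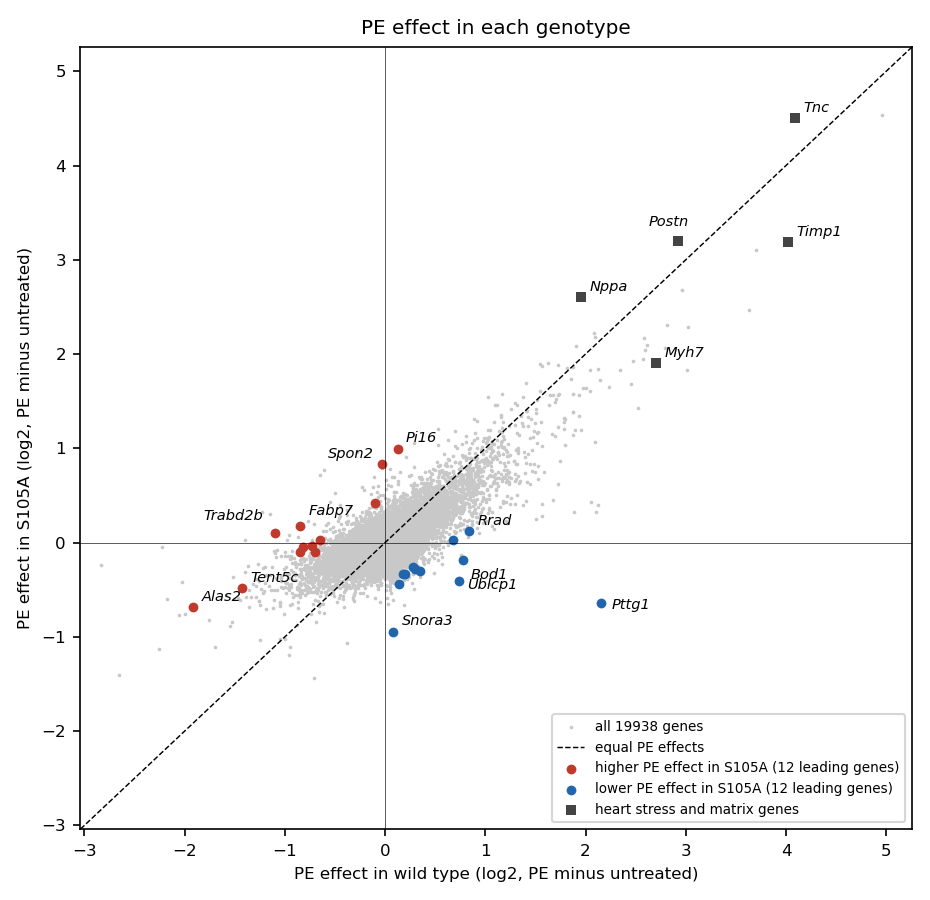
PE effect in S105A (vertical axis) against the PE effect in WT (horizontal axis), both in log2 units, with 1 point per gene and the leading genes and heart genes named; the diagonal marks equal effects. Pttg1 lies farthest below the diagonal among the named genes, at 2.16 in WT and -0.64 in S105A, and Myh7 lies below it with both effects above 0.

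The heart's own stress genes come first. Myh7, the slow beta-myosin heavy chain that marks the fetal programme, measured 8.29 and 8.52 in untreated WT, 11.33 and 10.89 in WT with PE, 8.75 and 8.63 in untreated S105A, and 10.71 and 10.48 in S105A with PE. Both PE groups lay far above both untreated groups, the untreated S105A hearts lay above the untreated WT hearts, and the S105A hearts with PE lay below the WT hearts with PE. The PE effect was 2.70 in WT and 1.91 in S105A. The interaction was -0.80 (SE 0.24, 95% interval -1.37 to -0.22, unadjusted p = 0.0139 and adjusted p = 1.00 by limma), and it was between -1.02 and -0.57 when each array was left out in turn. Passing the threshold in WT and not in S105A (adjusted p = 0.271 by limma) therefore does not amount to a difference between genotypes past the threshold.

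The natriuretic peptides, hormones released by stretched heart muscle, did not lean the same way as Myh7. Nppa, the atrial peptide, measured 11.11 and 11.84 in untreated WT, 13.95 and 12.92 in WT with PE, 10.73 and 10.92 in untreated S105A, and 13.76 and 13.08 in S105A with PE. The 2 PE groups overlapped, and the untreated S105A hearts lay below the untreated WT hearts. Its interaction was 0.64 (SE 0.57, 95% interval -0.71 to 1.99). Nppb, the B-type peptide, measured 10.69 and 11.30 in untreated WT, 12.21 and 11.47 in WT with PE, 10.57 and 10.74 in untreated S105A, and 12.07 and 11.25 in S105A with PE, and its interaction was 0.16 (SE 0.50, 95% interval -1.03 to 1.35). The Nppb interaction changed sign when array 2, 4 or 7 was left out (-0.14, -0.21 and -0.24).

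The upstream sequences of these 3 genes are shown as well-known stress genes of the heart; they were chosen with their values known. Each is the 250 bases before the gene's start in RefSeq on mouse assembly GRCm38.p6, written 5′ to 3′ on the gene's own strand, with GATAA or its reverse complement TTATC in capitals. Nppa lies at chr4:148000472-148000721 on the plus strand, Nppb at chr4:147985650-147985899 on the plus strand and Myh7, at the downstream of its 2 listed starts, at chr14:54994550-54994799 on the minus strand.
Nppa: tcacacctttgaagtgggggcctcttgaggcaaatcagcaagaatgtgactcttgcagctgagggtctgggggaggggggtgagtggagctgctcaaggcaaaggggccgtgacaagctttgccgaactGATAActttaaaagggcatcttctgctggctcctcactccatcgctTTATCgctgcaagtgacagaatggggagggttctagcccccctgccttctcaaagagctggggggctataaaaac
Nppb: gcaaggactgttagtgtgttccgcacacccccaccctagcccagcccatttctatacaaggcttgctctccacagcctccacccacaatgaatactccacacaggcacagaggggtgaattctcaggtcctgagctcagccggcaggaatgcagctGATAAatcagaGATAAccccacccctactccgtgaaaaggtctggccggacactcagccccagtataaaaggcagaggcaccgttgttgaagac
Myh7: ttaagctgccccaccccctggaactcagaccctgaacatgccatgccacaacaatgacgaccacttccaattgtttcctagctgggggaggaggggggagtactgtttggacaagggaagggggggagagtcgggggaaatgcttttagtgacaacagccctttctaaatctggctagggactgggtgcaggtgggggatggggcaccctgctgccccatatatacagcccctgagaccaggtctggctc
Nppa held 1 GATAA, starting 121 bases before the gene, and 1 TTATC starting 75 bases before it; Nppb held 2 GATAA, starting 94 and 83 bases before it; the Myh7 window held neither, nor did the window of its other start. Among all 32851 windows of this length in the table, 7418 (22.6%) held GATAA or TTATC, searched on both strands. Of the tested genes with a window 22.3% held one, as did 4 of the 11 GATA4 targets with a window (Nppa, Nppb, Slc8a1 and Vegfa) and 1 of the 15 leading genes with a window (Alas2). These 2 motifs do not overlap each other. Such a match is a description of the letters, not of binding.

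Other members of the hypertrophy programme lay close to equal effects or were too variable to place. Ankrd1, a stretch-responsive nuclear and sarcomeric protein, measured 12.41 and 12.68 in untreated WT, 13.23 and 13.37 in WT with PE, 12.55 and 12.67 in untreated S105A, and 13.36 and 13.24 in S105A with PE. PE hearts of both genotypes lay above all untreated hearts, by 0.75 in WT and 0.69 in S105A. The Ankrd1 interaction of -0.06 (SE 0.17) had a 95% interval of -0.46 to 0.33, which leaves out a 2-fold difference. Rcan1, a calcineurin target and inhibitor, had an interaction of -0.20 (SE 0.37). Acta1, the skeletal actin of the fetal programme, had one of -0.53 (SE 0.50), with 12.37 and 11.62 in WT with PE against 11.43 and 11.31 in S105A with PE. Myh6, the adult alpha-myosin heavy chain, had an interaction of 0.20 (SE 0.21) and the calcium pump gene Atp2a2 one of 0.16 (SE 0.20). Over the 20 hypertrophy markers, 7 had a positive interaction and the median was -0.08, against 47.5% positive and a median of -0.01 over all genes. That median was 0.04 without array 3 and -0.32 without array 4.

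**Figure D2:**
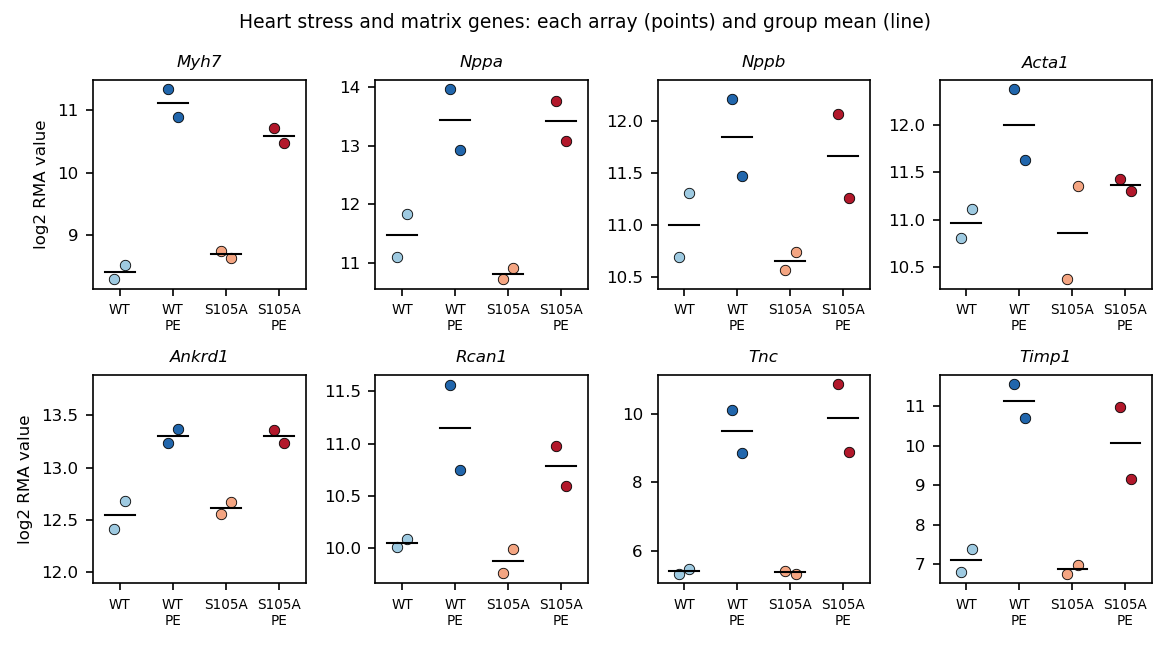
Log2 expression of 8 heart stress and matrix genes on each array, 2 points and a line at the mean per group, for WT and S105A untreated (no further word) and with PE. For Myh7 the S105A hearts with PE (10.71 and 10.48) lie below the WT hearts with PE (11.33 and 10.89); for Nppa, Nppb and Ankrd1 the 2 PE groups overlap.

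Genes of GATA4's own circuit were examined as lists, and no member passed the threshold in any of them. Of 15 textbook GATA4 targets 14 were measured, 9 with a positive interaction, and the median was 0.17; without array 3 it was -0.02. Of 20 transcription factors that act with GATA4, 19 were measured and 16 had a positive interaction. Their median was 0.14, with a median PE effect of -0.11 in WT and 0.05 in S105A, and it stayed between 0.14 and 0.21 when each array was left out. Within that list the smallest unadjusted p-values included Myocd, the coactivator of serum response factor, with an interaction of 0.50 (SE 0.21), and Srf, serum response factor itself, with one of 0.27 (SE 0.12). Srf measured 10.10 and 10.18 in untreated WT, 10.01 and 9.95 in WT with PE, 9.86 and 9.79 in untreated S105A, and 9.98 and 9.89 in S105A with PE. Untreated S105A hearts lay lowest, and the WT hearts with PE lay below the WT controls.

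The kinase pathway that acts on this serine had no settled lean as a group. Of 22 measured ERK pathway and feedback genes 11 had a positive interaction, with a median of 0.00. Without array 3 there were 18 positive members and a median of 0.16, and without array 4 there were 8 and a median of -0.11. Ier3, an early response gene downstream of ERK, had an interaction of -0.89 (SE 0.34). Among the 22 it was the 1 member at an unadjusted p under 0.05, a level that 2.42% of all genes reached. Next by unadjusted p came Dusp1, Spred2 and Spry4, with positive interactions of 0.46, 0.35 and 0.40. PE differences did not overlap between genotypes in 4 members with S105A above WT and in 1 with WT above S105A. The shares over all genes were 5.97% and 7.64%. The 20 measured immediate early genes had 10 positive members and a median of -0.00, which was 0.16 without array 3 and -0.16 without array 7, and the 20 measured adrenergic receptor and coupling genes had 13 positive members and a median of 0.12.

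The 24 leading genes were the 12 per direction with the smallest unadjusted interaction p among those with an interaction of at least 0.5 in size. None passed adjustment: the smallest adjusted p was 0.336 by limma, for Pttg1, and every other gene was at 1.00 after rounding. With WT and S105A compared array by array, 13.6% of all genes had PE-minus-untreated differences that did not overlap between genotypes (5.97% with S105A above WT and 7.64% with WT above S105A), and 3.76% had WT and S105A differences of opposite sign on every array.

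For each gene, the group whose 2 arrays lay outside the 6 others was noted, and where several did, the one with the widest gap. It was most often the untreated WT pair, in 11 of the 24 leading genes, followed by the WT and S105A hearts with PE in 4 each and the untreated S105A hearts in 3. Over all genes the untreated WT pair stood apart in 11.4%, the untreated S105A pair in 14.7%, the WT hearts with PE in 6.30% and the S105A hearts with PE in 3.51%. A gene in which the untreated groups differ gives an interaction of the same size as one in which the PE groups differ, and the leading genes were selected on that interaction, so these counts are a description.

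Pttg1, which encodes securin, the inhibitor of sister chromatid separation, had the interaction farthest from 0 of all genes. It measured 7.65 and 7.68 in untreated WT, 9.56 and 10.08 in WT with PE, 10.26 and 10.38 in untreated S105A, and 9.83 and 9.52 in S105A with PE. The untreated WT pair lay far below the 6 other arrays, the untreated S105A pair lay highest by a small gap, and the hearts with PE of the 2 genotypes overlapped. The PE effect was 2.16 in WT and -0.64 in S105A, giving an interaction of -2.80 (SE 0.26, 95% interval -3.41 to -2.18). The genotypes differed by 2.65 without PE and by -0.14 with it. The gene was past the threshold when array 3 (adjusted p = 0.0158) or array 4 (adjusted p = 0.0205 by limma) was left out, and at an adjusted p of 0.963 to 1.00 when any other array was.

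Bod1 and Ublcp1 had the same layout on a smaller scale. Bod1, a kinetochore protein, measured 8.57 and 8.22 in untreated WT, 9.08 and 9.26 in WT with PE, 9.29 and 9.24 in untreated S105A, and 9.09 and 9.07 in S105A with PE, an interaction of -0.96 (SE 0.18). Ublcp1, a phosphatase of the nuclear proteasome, measured 6.86 and 7.32 in untreated WT, 7.74 and 7.91 in WT with PE, 8.16 and 8.13 in untreated S105A, and 7.76 and 7.74 in S105A with PE, an interaction of -1.14 (SE 0.21). In both, the untreated WT pair lay lowest with the widest gap, and in Ublcp1 the untreated S105A pair lay highest. Of the 24 leading genes 5 lay on chromosome 11, the chromosome of Pttg1, which held 1566 of the tested genes. These positions belong to the gene symbols, and where each probe set maps was not checked. Bod1, Pttg1, Ccnjl and Ublcp1 lay within a stretch of 58 tested genes there, singled out after the values were seen. Its ends were set by these leading genes, which were themselves picked by a small p. Of the 58 genes 6 were at an unadjusted p under 0.05, against 2.42% of all genes. The 4 leading genes are among the 6 by selection, and the only 2 others were Snrnp25 and Nprl3. Sequence differences between the WT and mutant mice in this stretch were not tested. Ccnjl, a cyclin J-like gene, had the opposite sign, at 0.67 (SE 0.17).

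Unlike in Pttg1, the 2 PE groups did not overlap in Rrad, another gene with the lower PE effect in S105A. Rrad too had its widest gap at the untreated WT pair. It encodes a small GTPase that restrains L-type calcium channels, and it measured 9.96 and 10.02 in untreated WT, 10.81 and 10.86 in WT with PE, 10.53 and 10.56 in untreated S105A, and 10.75 and 10.58 in S105A with PE. The WT hearts with PE lay highest, the untreated WT hearts lowest, and the 2 S105A groups lay between them close to each other. The PE effect was 0.84 in WT and 0.12 in S105A, an interaction of -0.72 (SE 0.12, 95% interval -1.01 to -0.43). Trip13, an ATPase of the spindle checkpoint, had its high values in WT with PE alone, at 5.69 and 5.53 against 4.82 to 5.20 on the other 6 arrays (interaction -0.65, SE 0.16).

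Snora3, a small nucleolar RNA that guides RNA modification, measured 9.13 and 9.13 in untreated WT, 9.14 and 9.28 in WT with PE, 9.37 and 9.82 in untreated S105A, and 8.58 and 8.71 in S105A with PE. Its S105A hearts with PE lay below all others, and the interaction was -1.03 (SE 0.21). The remaining genes with the lower PE effect in S105A were Tex44, Esrp2, Ccdc96, Hapln4, Gm8096 and Zfp273, with interactions between -0.65 and -0.52. Of the 12 genes in that direction, 10 had a positive PE difference on every WT array and a negative one on every S105A array; opposite signs on every array occurred in 3.76% of all genes, and selection by a small interaction p favours this layout. Of the 12, 5 had a mean level below the 40th percentile of all genes, where values lie near an unmeasured floor, against 1 of the 12 genes with the higher PE effect in S105A.

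**Figure D3:**
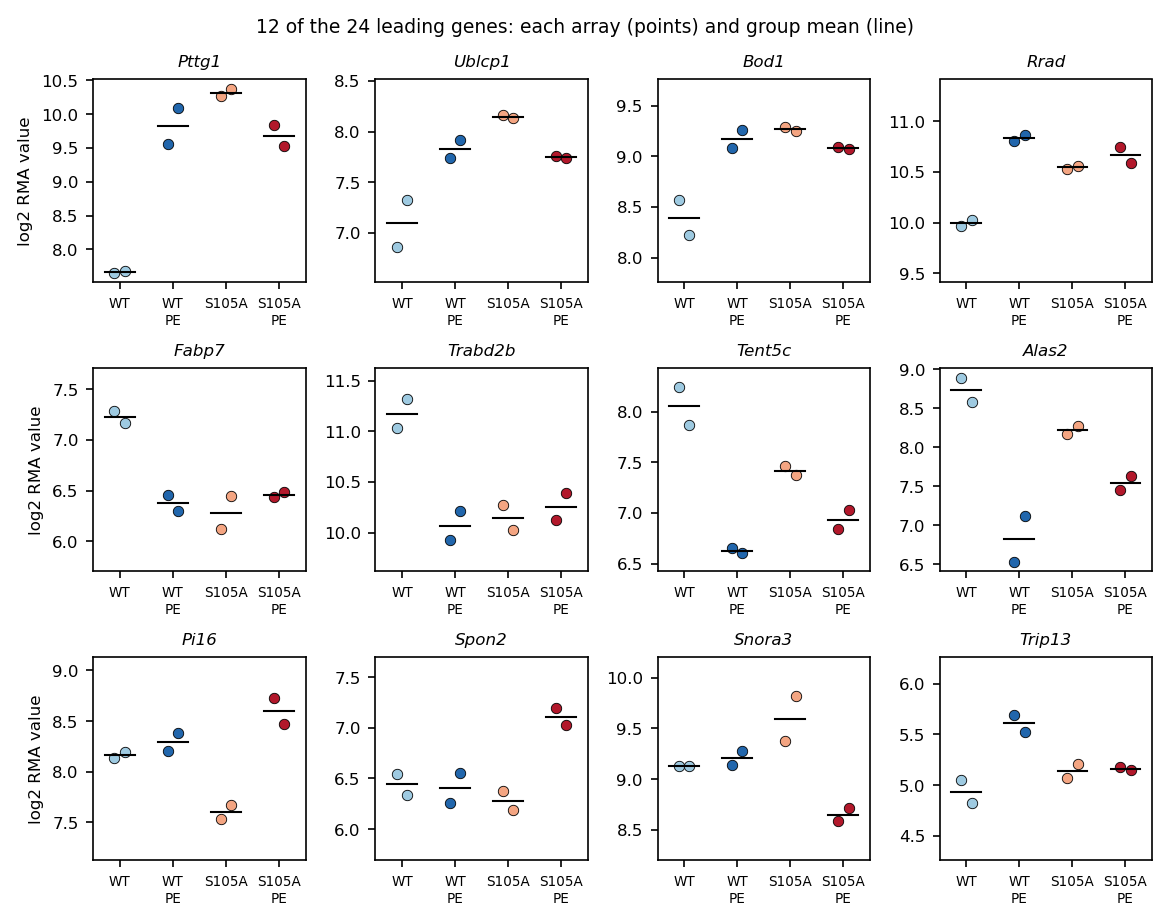
Log2 expression on each of the 8 arrays for 12 of the 24 leading genes, 2 points and a line at the mean per group (WT and S105A without a further word are untreated). In Pttg1, Bod1, Ublcp1, Rrad, Trabd2b, Fabp7 and Tent5c the untreated WT pair has the widest gap to the 6 other arrays. In Pi16 the untreated S105A pair lies lowest and the S105A hearts with PE highest.

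Among the genes with the higher PE effect in S105A, Fabp7 and Trabd2b also differed mainly in the untreated WT pair. Fabp7, a fatty acid binding protein best known from the brain, measured 7.29 and 7.17 in untreated WT and 6.12 to 6.49 on the other 6 arrays, an interaction of 1.02 (SE 0.18). Trabd2b, a membrane protease that acts on Wnt proteins, measured 11.03 and 11.31 in untreated WT and 9.92 to 10.39 on the other 6 arrays, an interaction of 1.21 (SE 0.23). In both, the PE effect in WT was negative and the S105A hearts were already low without PE. Ttc38 had the same layout, with an interaction of 0.77 (SE 0.17).

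Amacr and Kpna2 differed in the WT hearts with PE instead. Amacr, a racemase that prepares branched-chain fatty acids for oxidation, measured 9.68 and 9.81 in untreated WT, 8.96 and 9.06 in WT with PE, 9.58 and 9.51 in untreated S105A, and 9.42 and 9.58 in S105A with PE. Only the WT hearts with PE were low, and the interaction was 0.69 (SE 0.14). Kpna2, an importin that carries proteins into the nucleus, measured 9.78 and 9.91 in WT with PE and 10.48 to 10.80 on the other 6 arrays, an interaction of 0.60 (SE 0.15). Zfp759, a zinc-finger gene, had an interaction of 0.75 (SE 0.18).

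Pi16, Spon2 and Rnf125 had their highest values in S105A with PE. Pi16, a secreted protein of cardiac fibroblasts, measured 8.14 and 8.19 in untreated WT, 8.20 and 8.38 in WT with PE, 7.53 and 7.67 in untreated S105A, and 8.72 and 8.47 in S105A with PE. The WT groups lay between the 2 S105A groups, and the interaction was 0.87 (SE 0.17, 95% interval 0.47 to 1.27). Spon2, a secreted matrix protein, measured 7.20 and 7.02 in S105A with PE and 6.19 to 6.56 on the other 6 arrays, an interaction of 0.86 (SE 0.20). Rnf125, a ubiquitin ligase, measured 8.39 and 8.33 in S105A with PE and 7.88 to 8.13 on the other 6 arrays, an interaction of 0.52 (SE 0.13). Pi16 belongs to the 18 fibroblast markers, of which 13 had a positive interaction with a median of 0.19, and that median stayed between 0.04 and 0.39 when each array was left out. The mean level of those markers was 9.44 and 8.91 in WT with PE and 9.39 and 8.96 in S105A with PE, against 8.48 to 8.63 without PE. Ddr2, a collagen receptor of fibroblasts, had an interaction of 0.34 (SE 0.12). Interactions of the 18 markers ran from -1.17 to 0.87, and without array 2 only 9 of them were positive.

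Genes of red cell development mostly had a positive interaction, without any member passing adjustment. Their median PE effect was -0.31 in WT and -0.12 in S105A, so the median drop with PE was smaller in S105A. Alas2, the first enzyme of haem synthesis in red cell precursors, measured 8.89 and 8.58 in untreated WT, 6.52 and 7.11 in WT with PE, 8.17 and 8.27 in untreated S105A, and 7.45 and 7.63 in S105A with PE. No 2 groups overlapped: untreated WT lay highest and WT with PE lowest. The PE effect was -1.92 in WT and -0.69 in S105A, an interaction of 1.23 (SE 0.29, 95% interval 0.54 to 1.91). Tent5c, a poly(A) polymerase expressed in red cell precursors and plasma cells, measured 8.25 and 7.86 in untreated WT, 6.65 and 6.60 in WT with PE, 7.47 and 7.37 in untreated S105A, and 6.84 and 7.03 in S105A with PE, in the same order (interaction 0.94, SE 0.20). Slc4a1, the band 3 anion exchanger of the red cell membrane, had an interaction of 0.53 (SE 0.18), and Slc25a37, the mitochondrial iron importer, had one of 0.61 (SE 0.19). Of 12 measured erythroid genes, 9 had a positive interaction and 4 of these were at an unadjusted p under 0.05 (0.903% of all genes in this direction). PE differences did not overlap between genotypes in 7 of the 12, against 13.6% of all genes. The list was written with earlier results of these data known, and it holds the leading genes Alas2 and Tent5c. These counts are therefore a description and not an excess over all genes.

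The median interaction of the erythroid genes was 0.24, and it stayed between 0.20 and 0.32 when each array was left out. Their mean level was 8.19 and 8.09 in untreated WT, 7.60 and 7.68 in WT with PE, 7.87 and 7.89 in untreated S105A, and 7.71 and 7.77 in S105A with PE. In whole tissue, fewer red cells or precursors in the sample and less of these RNAs per cell cannot be told apart. The amount of blood left in each heart was not tested.

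The genes that PE shifted most, irrespective of genotype, were followed as a pair of sets, defined after the data were seen by an averaged PE effect of at least 1 log2 unit. Of 189 PE-raised genes 146 had the smaller effect in S105A, with a median interaction of -0.22 (median PE effect 1.42 in WT and 1.17 in S105A). Without array 3 the median was 0.54 and 172 of the 189 had the larger effect in S105A, and without array 8 it was 0.33 with 147 such genes. Without array 4 it was -1.01 and without array 7 it was -0.79, with 4 such genes each. Without arrays 3 and 7 together it was -0.01, with 90 positive and 99 negative, and without arrays 4 and 8 it was -0.46. Of 24 PE-lowered genes 20 had the weaker effect in S105A, with a median interaction of 0.89, and leaving out array 3 gave -0.27, leaving out 3 and 7 gave 0.07. The sign of the PE-raised median thus depended on which single heart with PE was left out, in either genotype.

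The matrix and metabolic groups also moved with single hearts given PE. Of 41 measured extracellular matrix genes 14 had a positive interaction, with a median of -0.22; leaving out array 3 or 8 gave medians of 0.50 and 0.28, leaving out array 4 or 7 gave -0.86 and -0.61, and leaving out 3 and 7 together gave 0.04. Their mean level was 10.64 and 9.35 in WT with PE and 10.20 and 9.22 in S105A with PE, against 8.26 to 8.44 without PE. Tnc, a matrix protein of injured heart, measured 10.12 and 8.86 in WT with PE and 10.87 and 8.89 in S105A with PE, against 5.33 to 5.47 without PE, and its interaction was 0.42 (SE 0.91). Timp1, an inhibitor of matrix proteases, had an interaction of -0.84 (SE 0.81), Postn, a matrix protein of activated fibroblasts, one of 0.28 (SE 0.83) and Col1a1, a chain of type I collagen, one of -0.41 (SE 0.89). Each of these 4 changed sign when some single array was left out. Of 20 macrophage markers 8 had a positive interaction, with a median of -0.04; leaving out array 3 or 8 gave 0.25 and 0.27, and leaving out array 4 or 7 gave -0.43 and -0.33.

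Fatty acid uptake and oxidation genes leaned towards a weaker PE effect in S105A, with 30 of 32 measured genes positive and a median of 0.37 (median PE effect -0.66 in WT and -0.28 in S105A). Without array 3 only 4 of the 32 were positive and the median was -0.17; without arrays 3 and 7 it was 0.05. Their mean level was 10.09 on array 3 and 10.80 on array 7, against 11.16 to 11.30 on the other 6 arrays. Ppara, the nuclear receptor that drives these genes, measured 9.87 and 9.97 in untreated WT, 8.05 and 9.41 in WT with PE, 9.54 and 9.38 in untreated S105A, and 8.88 and 9.35 in S105A with PE, an interaction of 0.85 (SE 0.57) that was 0.16 without array 3 and 1.53 without array 4. Oxidative phosphorylation genes had 43 of 44 positive members and a median of 0.15; without array 3 it was 1 of 44, with a median of -0.15. Ogdhl, a 2-oxoglutarate dehydrogenase-like enzyme, was at 9.89, 10.01, 8.28 and 9.99 on the WT arrays 1 to 4 and at 6.01 to 6.70 on the S105A arrays, so the genotypes did not overlap, while its interaction was 0.38 (SE 0.69).

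**Figure D4:**
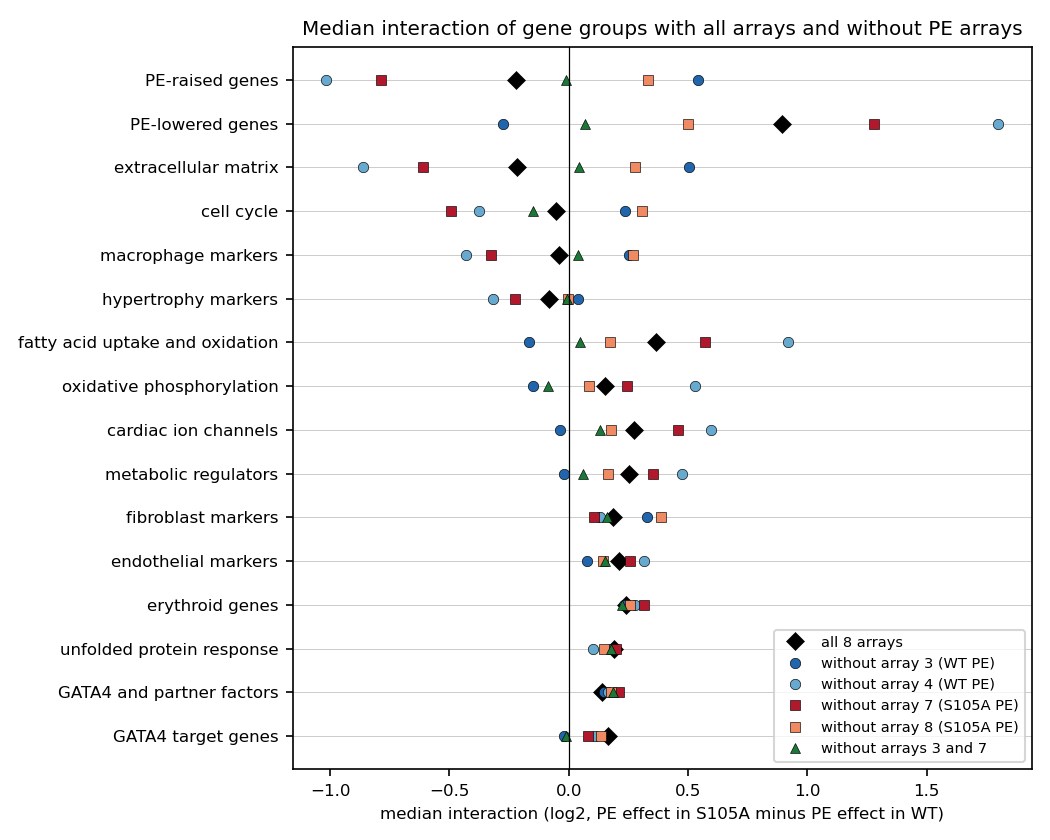
Median interaction of 16 gene groups, in log2 units, with all 8 arrays, with array 3, 4, 7 or 8 left out, and with both 3 and 7 left out (symbols as in the key). The erythroid genes stay between 0.22 and 0.32, whereas fatty acid genes move from 0.37 to -0.17 and matrix genes from -0.22 to 0.50 without array 3, and matrix genes reach 0.28 without array 8.

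Of 26 measured inflammatory and acute phase genes, 2 were at an unadjusted p under 0.05, Lcn2 and Il6, against 2.42% of all genes; both had the lower PE effect in S105A. Lcn2, an iron-binding acute phase protein, measured 6.76 and 7.99 in untreated WT, 9.66 and 9.19 in WT with PE, 6.79 and 6.69 in untreated S105A, and 7.62 and 6.71 in S105A with PE. The WT hearts with PE lay above all others, and the interaction was -1.63 (SE 0.63, 95% interval -3.12 to -0.14). Array 2 was the high untreated array for Lcn2, and the mean level of the 13 neutrophil markers was 6.28 on that array against 5.22 to 5.45 on the other 7; the part of neutrophils in the Lcn2 values was not tested. Il6, the cytokine, had an interaction of -0.55 (SE 0.21) at levels of 3.73 to 4.59. These lie below the 40th percentile of mean level over all genes (6.18), near the unmeasured floor. Serpina3n, a protease inhibitor of the acute phase, had one of -0.77 (SE 0.81). Over this list 11 members had a positive interaction, and the median of -0.12 was 0.08 without array 4.

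Electrical and calcium-handling genes completed the heart's own lists. Of 21 measured ion channel genes 18 had a positive interaction, with a median of 0.27 that was -0.04 without array 3. Kcna5, a potassium channel of repolarization, measured 6.95 and 7.41 in untreated WT, 5.52 and 6.66 in WT with PE, 6.49 and 6.53 in untreated S105A, and 6.62 and 6.61 in S105A with PE. The untreated WT hearts lay highest and array 3 lowest, and the interaction was 1.20 (SE 0.48). Of 21 measured calcium handling genes 13 had a positive interaction, with a median of 0.04 that was -0.01 without array 3. Cacnb2, a subunit of the L-type calcium channel, had an interaction of -0.28 (SE 0.11), with untreated S105A hearts at 6.37 and 6.44 against 5.89 to 6.06 on the other 6 arrays. Its mean level of 6.09 lay below the 40th percentile of all genes (6.18), near the unmeasured floor.

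The genes with the widest gap between the PE differences of the genotypes included some with large but variable interactions. Sun3, a nuclear envelope protein best known from the testis, measured 8.17 and 7.92 in untreated WT, 5.06 and 5.35 in WT with PE, 6.75 and 5.48 in untreated S105A, and 5.12 and 6.63 in S105A with PE, an interaction of 2.60 (SE 0.78). Tmprss13, a membrane serine protease, measured 8.82 and 8.97 in untreated WT, 6.67 and 6.66 in WT with PE, 6.74 and 8.35 in untreated S105A, and 7.41 and 7.60 in S105A with PE, an interaction of 2.18 (SE 0.64). The WT pairs were even in both genes, whereas the untreated S105A pair was uneven in both and the S105A pair with PE was uneven in Sun3. Gpr75, a G protein-coupled receptor, had an interaction of 1.56 (SE 0.39), with untreated WT at 7.31 and 7.72.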

How the data were processed

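RNA from the hearts of 8 mice was hybridized to 1 array each. The authors deposited log2 expression values from RMA, as the submitters' processing notes state; version, probe set definitions and build were not given in the sources used here. Because RMA aligns the distributions of the arrays, it removes shifts that most genes share. No detection calls were used, and the number of arrays limits the precision.

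Of 35557 rows, 21789 probe sets had 1 gene symbol in the platform annotation, 1621 several and 12147 none; the latter 2 kinds were left out. Where a gene had several probe sets (999 genes) the one of highest mean stood for it, leaving 19938 genes, of which 19855 matched the reference gene table (GRCm38.p6) by Entrez identifier. The 8 arrays were fitted in limma 3.58.1 (R 4.3.3) with a coefficient for each group (4 residual and 2.74 prior degrees of freedom); tables and plots were made with Python 3.11.15, pandas 2.3.3 and matplotlib 3.10.9. P-values are two-sided, with Benjamini-Hochberg adjustment over all genes and a threshold of 0.05; intervals are at 95%. The fitting code was tested on simulated data.

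Candidates for naming were up to 12 genes per direction by unadjusted p among interactions of 0.5 or more in size. In each list the 4 members of smallest p were added. So were up to 5 genes per direction by the gap between the PE differences of the genotypes. A set of heart genes was included whatever their values. Not all candidates are named in the text, and 57 of them were followed under the alternatives below. Marker genes and genes named as chosen later are exceptions. The comparison, the 34 lists (758 entries) and the named set were chosen with earlier results of these data known. Lists are described by counts and medians, with no set test. Alternatives were a filter on the lowest 40% of genes, probe set means, all rows, quantile normalization, trended variance, array weights, other thresholds, each array left out, and arrays 3 and 7 or 4 and 8 left out together. The PE-raised and PE-lowered sets were added after seeing the data.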

Additional observations from a re-analysis of the deposited data

Results flagged for a closer look

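In 16 of the 57 genes followed under the alternatives, every PE-minus-untreated difference between arrays had one sign in WT and the opposite sign in S105A. This layout was seen in 750 of all genes (3.76%). Many of the genes named were picked by a small interaction p, which favours this layout, and 11 of the 16 were leading genes. The 16 are therefore a description and not an excess over all genes. None of the 16 passed the limma test of the interaction at an adjusted p under 0.05. Genes with positive WT differences and negative S105A differences were Pttg1 with an interaction of -2.80, Ublcp1 with -1.14, Snora3 with -1.03, Bod1 with -0.96, Tex44 with -0.65, Esrp2 with -0.57, Ccdc96 with -0.57, Hapln4 with -0.54, Zfp273 with -0.54 and Gm8096 with -0.52. Genes with negative WT differences and positive S105A differences were Kcna5 with an interaction of 1.20, Oas2 with 0.73, Sgk1 with 0.62, Slc25a37 with 0.61, Rnf125 with 0.52 and Srf with 0.27. Other candidates for naming with opposite signs included Dusp1, Gna11, Entpd2, Notch3 and Hsf2, also negative in WT and positive in S105A.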

How the results depend on the processing

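The count of 0 genes past the threshold was also 0 with the filter, probe set means, all rows, quantile normalization, trended variance and array weights. It was 0 to 7 when each array was left out: 1 without array 3 (Pttg1), 7 without array 4 (Fmod, Pttg1, Tnxb, Psca, Cemip, Pla2g5 and Serpinb9b, named here because they passed) and 0 without any other array, with the lone array of a group assumed to vary like the others. Without arrays 3 and 7 it was 1 and without arrays 4 and 8 it was 147; list members past the threshold were then 1 and 28, and 0 to 1 with each array left out. Without adjustment 483 genes had a p under 0.05, and 29 had a p under 0.01 and a 1.5-fold or larger interaction. Non-overlapping PE differences with S105A above WT numbered 1190, and 2111 to 4588 with 1 array left out, 5567 without arrays 3 and 7 and 5890 without arrays 4 and 8. With WT above S105A they numbered 1523, 632 with the filter, 2698 to 4581 with 1 array left out, and 5823 and 6763 without those pairs; fewer differences per genotype make non-overlap easier to meet. The filter moved the share of positive interactions from 47.5% to 53.6%. Of 904 gene values under alternatives, 24 changed sign. The filter, all rows, trended variance and array weights left the size of each gene's interaction as it was. Those alternatives could therefore not change a sign, and the 904 values include them. The sign changes came with 1 array left out, with ranges of -0.033 to 0.20 for Gata4, -0.029 to 0.42 for Myh6, -0.24 to 0.57 for Nppb, -0.20 to 0.069 for Ankrd1, -0.61 to 0.21 for Rcan1, -0.055 to 0.38 for Atp2a2, -0.67 to 1.22 for Postn, -0.57 to 1.40 for Tnc, -1.74 to 0.068 for Timp1, -1.36 to 0.54 for Col1a1 and -0.47 to 1.24 for Ogdhl. Without arrays 3 and 7 the changed signs were 0.016 for Rcan1, -0.019 for Atp2a2 and -0.24 for Ogdhl; without arrays 4 and 8 they were -0.066 for Gata4, 0.066 for Ankrd1, -0.18 for Postn and 0.23 for Serpina3n. The cause was not tested. No paired analysis was possible because the individual numbers are not shared between groups.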

Other observations

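Protein folding and interferon genes also had mostly positive interactions, with no member past the threshold. Of 21 measured genes of the unfolded protein response 19 were positive, with a median of 0.19 (median PE effect 0.12 in WT and 0.31 in S105A). The median stayed between 0.09 and 0.20 with each array left out and was 0.06 without arrays 4 and 8. Without array 1 only 13 of the 21 were positive. Of 18 measured interferon response genes 13 were positive, with a median of 0.24; it was 0.06 without array 7 and -0.06 without arrays 3 and 7. Oas2, an antiviral enzyme of that response, measured 7.78 and 7.71 in untreated WT, 7.14 and 7.65 in WT with PE, 6.91 and 7.27 in untreated S105A, and 7.47 and 7.46 in S105A with PE. Of 15 measured atrophy and glucocorticoid genes 13 were positive, with a median of 0.30 that was 0.01 without array 3, and 2 of them, Errfi1 and Sgk1, were at an unadjusted p under 0.05 (2.42% of all genes). Errfi1, a feedback inhibitor of the EGF receptor, measured 9.15 and 9.78 in untreated WT, 9.33 and 9.05 in WT with PE, 8.84 and 8.81 in untreated S105A, and 10.01 and 9.56 in S105A with PE. Its untreated S105A hearts lay lowest, and WT hearts with and without PE overlapped; the interaction was 1.23 (SE 0.33, unadjusted p = 0.00817 and adjusted p = 1.00 by limma). Sgk1, a kinase induced by glucocorticoids, measured 8.39 and 8.73 in untreated WT, 8.21 and 8.28 in WT with PE, 8.02 and 8.36 in untreated S105A, and 8.41 and 8.57 in S105A with PE.

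Of 18 endothelial markers 15 had a positive interaction, with a median of 0.21 and a range of 0.08 to 0.31 with each array left out; their mean level was lowest on array 3, at 9.28, against 9.43 to 9.72 on the other 7 arrays. The 35 measured cell cycle genes had 14 positive members and a median of -0.05, and leaving out array 3 or 8 gave 0.24 and 0.31, whereas leaving out array 4 or 7 gave -0.37 and -0.49.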
